A study of Mus musculus with 2 samples.

Results

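The 10 genes described here carry acetyl groups to histones and remove them. Acly, Acss2 and Slc25a1 supply acetyl-CoA, Ep300, Crebbp, Kat7 and Hat1 code for enzymes that place acetyl groups on histones, and Hdac1, Hdac2 and Hdac3 code for enzymes that take them off. These genes were taken by symbol and not by a cut on measured values, but with earlier results of these data known. They make up 10 of the 31053 genes in the deposited matrices. All 10 symbols were found, each on 1 Ensembl identifier.

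Histone acetylation draws on acetyl-CoA of the cytosol and nucleus, which is kept apart from the mitochondrial store. Citrate leaves mitochondria through a carrier and is cut to acetyl-CoA, or acetate is joined to CoA, and acetyltransferases then transfer the acetyl group to lysines of the histone tails. In macrophages and microglia, acetylated histones mark active enhancers and promoters, including those of inflammatory genes, and deacetylases in corepressor complexes reverse the mark.

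The samples were retinal cells of C57BL/6j mouse pups at P17, sorted by FACS for CD11b and F4/80, surface markers of myeloid cells. One group of pups stayed in room air (RA, the control) and the other went through the oxygen-induced retinopathy (OIR) model, in which vessels lost under high oxygen are followed by new pathological vessels. Retinas were pooled before sorting and each condition was 1 library of 10x Chromium 3′ v3, so no test between RA and OIR was possible and cells were not treated as replicates. All 95% intervals given are exact and cover counting error only, not differences between pups, litters or library preparations.

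The RA library held 1449 cells and 12810892 UMIs (unique molecular identifiers, each standing for 1 captured transcript), and the OIR library 1259 cells and 9835402 UMIs, with 0 cell barcodes in common. After filters, 1295 RA and 1179 OIR cells remained, with a median of 9064 and 5427 UMIs. The 10 genes together held 6148 UMIs in RA and 4985 in OIR. Cells were clustered without the 10 genes, and 5 classes were named from marker genes. These were microglia (743 RA and 404 OIR cells), dividing cells (12 and 122), macrophages (74 and 88), monocytes (52 and 90) and rods (189 and 153), the photoreceptors of dim light, which came through the sort. All 16 microglia markers were detected in microglia and in dividing cells of both libraries, but also in macrophages and monocytes of both. Per 1000000 UMIs, dividing cells held 1284 (RA) and 1336 (OIR) UMIs of 12 macrophage markers, with 2 and 0 of these at 0. Microglia held 330 and 337, so the dividing class may not be microglia alone. The libraries stood apart in Malat1, an abundant RNA kept in the nucleus, whose level was lower in OIR in all 4 myeloid classes, with 19021 CPM (UMIs per 1000000 UMIs of the group) in RA microglia against 7602 in OIR microglia. Its part in the results was not tested.

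Hat1 (ENSMUSG00000027018) codes for the enzyme that acetylates newly made histone H4 before it is laid down on replicated DNA, and in microglia it had the largest ratio between the libraries among the 10 genes. Its level there was 24.1 CPM (95% interval 20.8 to 27.8, 188 UMIs) in RA and 52.9 CPM (45.8 to 60.9, 196 UMIs) in OIR. The intervals did not overlap. The OIR level was 2.20-fold that of RA, or 1.14 on the log2 scale (0.84 to 1.43).

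The 250 bases before the start of Hat1 and of Acly are printed here because Hat1 had the largest ratio of the 10 genes between libraries in microglia, while Acly, which makes cytosolic acetyl-CoA from citrate, had a flat order of levels across the classes. Both come from RefSeq on GRCm38.p6, Hat1 at chr2:71389010-71389259 on the plus strand and Acly at chr11:100528001-100528250 on the minus strand, each read 5′ to 3′ towards the gene. Capitals mark every match, on either strand, to 5 short motifs.
Hat1: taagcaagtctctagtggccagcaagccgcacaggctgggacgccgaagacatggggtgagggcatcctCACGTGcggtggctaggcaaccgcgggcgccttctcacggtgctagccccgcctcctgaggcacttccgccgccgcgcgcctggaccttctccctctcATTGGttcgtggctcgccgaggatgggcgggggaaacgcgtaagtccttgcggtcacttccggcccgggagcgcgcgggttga
Acly: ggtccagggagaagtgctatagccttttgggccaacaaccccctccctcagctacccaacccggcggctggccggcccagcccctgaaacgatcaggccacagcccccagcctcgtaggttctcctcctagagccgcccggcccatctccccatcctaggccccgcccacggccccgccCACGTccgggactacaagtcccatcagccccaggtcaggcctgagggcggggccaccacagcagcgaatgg
The motifs were TTTNNCGC, a form of the E2F site (in 4.28% of all 32851 promoter windows of this length), CCAAT, the NF-Y box (33.8%), TTTGAA, the cell cycle homology element (16.0%), TCACNCCAC, the sterol response element (1.05%), and ACGTG, the core of the hypoxia response element (16.6%). The Hat1 window held CCAAT on the opposite strand at position -83 and ACGTG on both strands at -181 and -180, which overlap within CACGTG, with positions counted back from -1, the last base before the start, to the first base of the match. The Acly window held ACGTG on the opposite strand at -71. Of the 8 genes with a window (Hdac1 and Hdac3 had none), Ep300 held TTTNNCGC at -30, Acss2, Slc25a1 and Kat7 held CCAAT, Slc25a1 also held ACGTG, and Crebbp and Hdac2 held none of the 5. These matches describe letters and not bound factors.

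**Figure D1:**
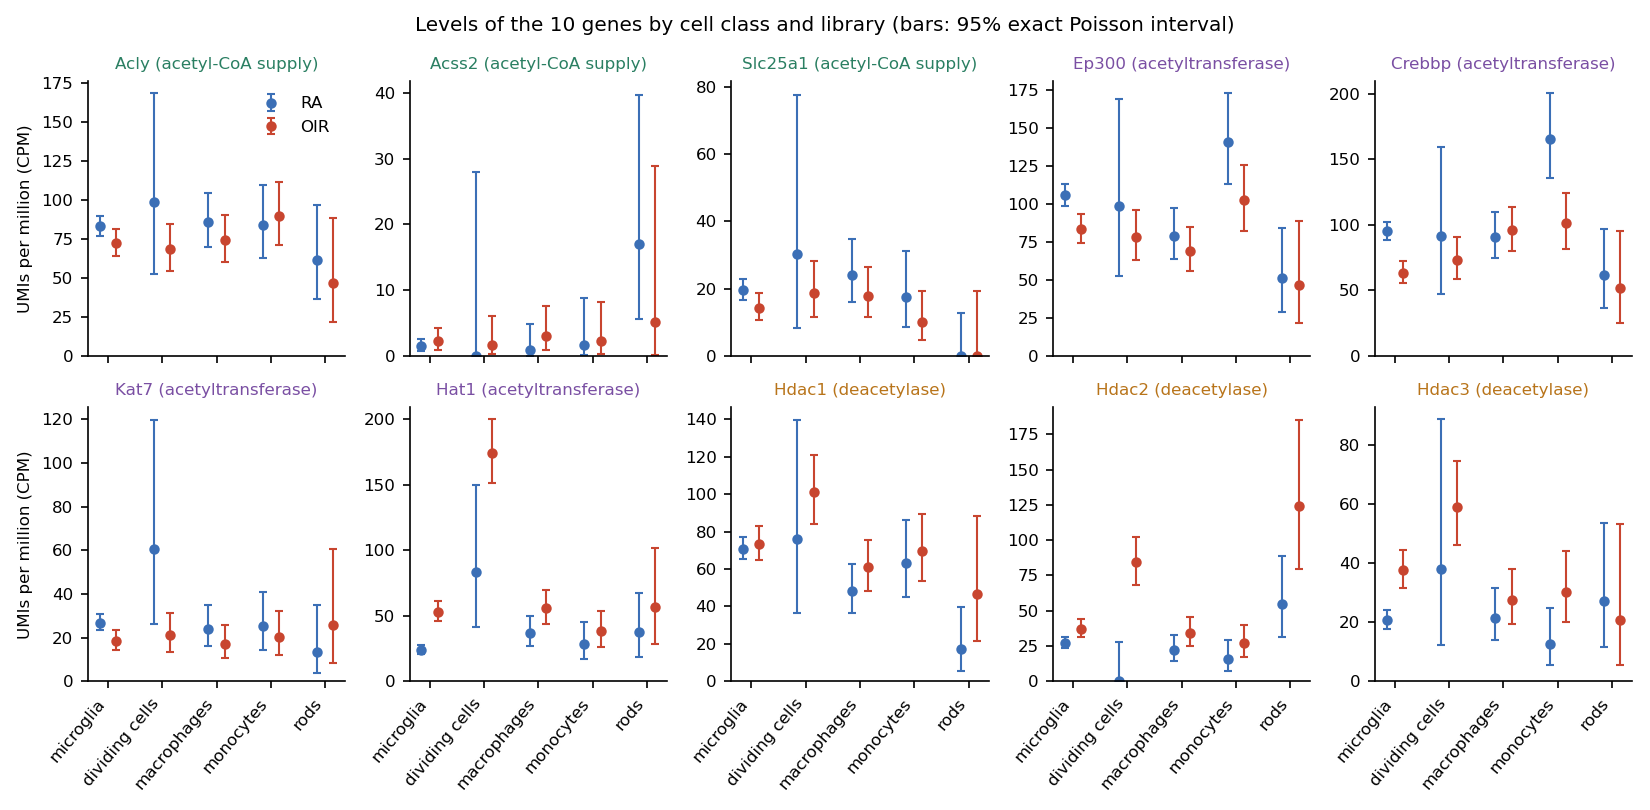
Level in CPM (y axis) of each of the 10 genes in 5 cell classes (x axis) of the RA (blue) and OIR (red) libraries, with bars for the exact 95% Poisson interval. Hat1 stands highest in OIR dividing cells at 175 CPM, Hdac2 in OIR rods at 124 CPM, and Ep300 and Crebbp in RA monocytes at 141 and 166 CPM.

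In microglia, 8 of the 10 genes passed the filter on low values (a mean of both libraries of at least 20 CPM), and Hat1 was the 1 gene past 2-fold. Among all 5421 genes that passed, 3.74% were at least 2-fold higher in OIR and 4.13% at least 2-fold lower, so a count of 1 higher and 0 lower among 8 says little about the set. UMIs of transcript 3′ ends are not scaled by gene length, so levels were compared between groups of cells and not between genes. Over the 10 genes, 5 were higher and 5 lower in OIR with a median log2 ratio of -0.07, against 0.05 for all genes. Ep300, Crebbp and Kat7 were lower in OIR and Hdac2 and Hdac3 higher, each with an interval that left out 0 in the full counts. With each cell thinned at random to 3000 UMIs the 5 signs held, but only the interval of Crebbp left out 0 (-0.62, -1.02 to -0.23). Ep300 then gave -0.23 (-0.58 to 0.11) and Hdac3 0.38 (-0.33 to 1.07). At 1000 UMIs, with few counts, all 5 intervals took in 0 and Ep300 gave 0.01. The 4 acetyltransferases summed to 252 CPM (241 to 263) in RA microglia and 218 CPM (204 to 234) in OIR microglia, and the 3 deacetylases to 119 CPM (111 to 127) and 148 CPM (136 to 161).

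Acly (ATP citrate lyase) stood at 83.1 CPM in RA and 72.4 CPM in OIR microglia, a log2 ratio of -0.20 (-0.41 to 0.01). Slc25a1, the carrier that brings citrate out of mitochondria, stood at 19.5 and 14.3 CPM, a log2 ratio of -0.44 (-0.92 to 0.02). For both, the interval took in 0. Acss2, which makes acetyl-CoA from acetate, gave 11 UMIs in 743 RA microglia and 8 UMIs in 404 OIR microglia, too few to place its ratio (log2 0.62, -0.90 to 2.07). Summed, the 3 supply genes stood at 104 CPM in RA and 88.8 CPM in OIR microglia, a log2 ratio of -0.23 (-0.42 to -0.04). The sum was thus lower in OIR beyond counting error in the full counts. With cells thinned to 3000 UMIs, Acly, most of the sum, gave 0.07 (-0.31 to 0.44), and Slc25a1 gave -0.43 (-1.25 to 0.34). At 1000 UMIs Acly gave -0.43 (-1.11 to 0.22). The drop of the sum was therefore not shown at equal depth.

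Ep300 and its paralogue Crebbp code for coactivators that acetylate histones at enhancers. Ep300 stood at 106 CPM (98.6 to 113) in RA and 83.4 CPM (74.4 to 93.3) in OIR microglia, and Crebbp at 95.4 and 63.5 CPM. The log2 ratios were -0.34 (-0.53 to -0.15) and -0.59 (-0.81 to -0.38). Kat7, which acetylates histones H3 and H4 in complexes with Brpf and Jade partners, stood at 26.9 and 18.6 CPM, a log2 ratio of -0.53 (-0.94 to -0.13). None of the 3 passed 2-fold. A cut at Malat1 of 1000 CPM or more kept 391 of 404 OIR and 742 of 743 RA microglia. The ratio of Crebbp was then -0.58. So few cells were left out that this cut could hardly move the ratio, and the part of Malat1 was not tested.

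Hdac1 and Hdac2 code for paralogous deacetylases of the Sin3, NuRD and CoREST complexes, and Hdac3 for the deacetylase of the NCoR complex. Hdac3 stood at 20.8 CPM (162 UMIs) in RA and 37.5 CPM (139 UMIs) in OIR microglia, 1.81-fold higher in OIR (log2 0.86, 0.52 to 1.19). Hdac2 stood at 27.2 and 37.3 CPM, a log2 ratio of 0.46 (0.14 to 0.77), and Hdac1 at 70.8 and 73.5 CPM, a ratio of 0.05 (-0.16 to 0.26). By log2 ratio the order was thus Hdac3, Hdac2, Hdac1, and in the full counts the interval of the 3 took in 0 for Hdac1 alone. Hdac1 has a processed copy, Gm10093, which held 6 UMIs in RA and 3 in OIR microglia, so reads lost to or gained from the copy leave the level of Hdac1 uncertain.

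**Figure D2:**
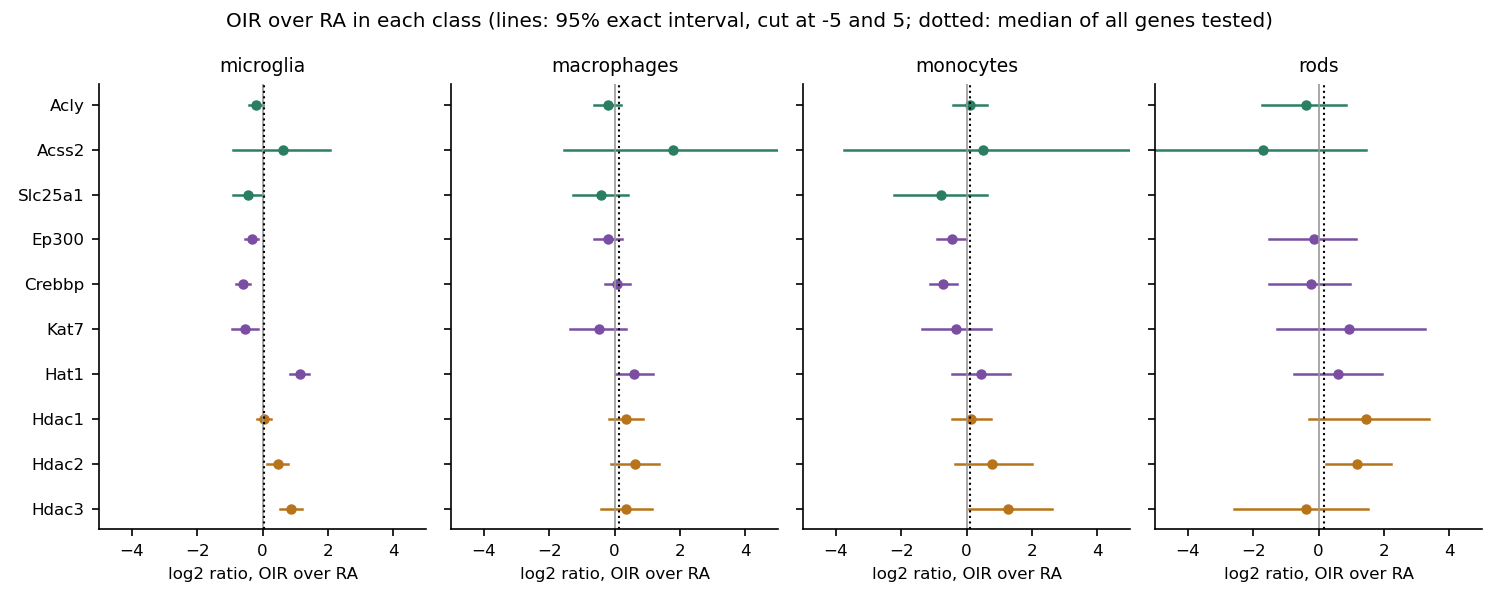
Log2 ratio of OIR over RA (x axis) of the 10 genes (y axis, coloured by role) in microglia, macrophages, monocytes and rods, with lines for the exact 95% interval and a dotted line at the median of all genes tested. In microglia Hat1 lies at 1.14 and Hdac3 at 0.86 on the right, and Crebbp at -0.59 and Kat7 at -0.53 on the left, and intervals widen in the smaller classes.

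Microglia formed 2 clusters, 1 led by Arl5c, Gm26522, Tnf and Tnfaip2 (363 RA and 236 OIR cells) and 1 led by the stress genes Rrad and Sertad1 with Gm46224 and Rhob (380 and 168). Hat1 was higher in OIR in both, from 23.9 to 50.8 CPM in the Tnf cluster (log2 1.09, 0.69 to 1.49) and from 24.2 to 56.5 CPM in the Rrad cluster (1.22, 0.76 to 1.68). Hdac3 gave 0.91 and 0.84 and Crebbp -0.48 and -0.77. Acly gave -0.36 (-0.64 to -0.08) in the Tnf cluster and 0.03 (-0.30 to 0.35) in the Rrad cluster. Hdac2 gave 0.87 (0.45 to 1.28) in the Tnf cluster and -0.16 (-0.73 to 0.38) in the Rrad cluster. The clusters were made from the same cells, and no test between them was made.

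Genes of the cell cycle moved along with Hat1 in microglia. The 16 markers of dividing cells summed to 18.6 CPM in RA and 91.0 CPM in OIR microglia, with Mki67 at 1.15 and 12.96 CPM and 3 and 1 of the markers at 0. Without the microglia that held any UMI of these markers (619 RA and 291 OIR cells remained), the Hat1 ratio was 0.98, just under 2-fold, and with the cells of most genes put back it was 0.97. Equal weight for each cell, in place of the sum of UMIs, gave 1.12. With every cell thinned to 3000 UMIs the ratio was 0.72 (0.07 to 1.36, 47 RA and 40 OIR UMIs), and with 1000 UMIs it was 0.36 (-0.59 to 1.29, 26 and 18 UMIs), so at these few counts the 2-fold call was lost.

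Dividing cells, nearly all from OIR, had the highest Hat1 level of the 5 classes. The OIR dividing cells held 207 Hat1 UMIs, or 175 CPM (152 to 200), against 52.9 CPM in OIR microglia, a 3.30-fold higher level (log2 1.72, 1.43 to 2.01). The 12 RA dividing cells held 11 UMIs, or 83.6 CPM (41.7 to 150), against 24.1 CPM in RA microglia (log2 1.79, 0.77 to 2.67). In the main clustering, each library thus gave a higher level in dividing cells from its own cells, and each ratio lay within the interval of the other. In RA, 2 of the 8 genes that passed the filter (Hat1 and Kat7) were at least 2-fold higher and 0 lower, where 18.9% and 9.83% of all genes were. The Kat7 ratio rested on 8 UMIs in RA dividing cells, and its interval took in 0 (log2 1.18, -0.05 to 2.18). After thinning to 1000 and 3000 UMIs the OIR ratio of Hat1 was 2.30 (1.38 to 3.25) and 2.25 (1.59 to 2.92). Without integration, which put 23 RA cells in the class, the RA ratio of Hat1 was 0.43, below its interval and under 2-fold. The OIR ratio was then 1.33, also below its interval (1.43 to 2.01) but past 2-fold. With 20 dimensions the OIR ratio was 1.28, again below that interval. The size of both ratios thus depended on the clustering.

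Hdac2 was the other gene past 2-fold in OIR dividing cells, at 84.3 CPM (100 UMIs) against 37.3 CPM in microglia (log2 1.18, 0.79 to 1.56). Hdac3 stood at 59.0 against 37.5 CPM (0.65, 0.22 to 1.08) and Hdac1 at 101 against 73.5 CPM (0.46, 0.14 to 0.78). In the full counts of OIR, all 3 deacetylases were thus higher in dividing cells with intervals above 0, though only Hdac2 reached 2-fold. At 3000 UMIs a cell, the Hdac2 ratio was 0.25 (-0.92 to 1.28, 10 UMIs in dividing cells) and that of Hdac3 was 1.58 (0.69 to 2.44). That of Hdac1 was 0.37 (-0.34 to 1.04). At 1000 UMIs, Hdac2 gave 1.77 (0.35 to 3.19), Hdac3 0.28 (-1.54 to 1.84) and Hdac1 0.61 (-0.45 to 1.60). The signs held, but no deacetylase had an interval above 0 at both depths. The remaining genes did not differ beyond counting error, with log2 ratios of -0.08 for Acly, 0.37 for Slc25a1, -0.09 for Ep300, 0.21 for Crebbp and 0.18 for Kat7. In all, 2 of 7 genes that passed the filter were at least 2-fold higher and 0 lower, where all 5796 genes gave 9.3% and 2.23%, and the median was 0.29 over the 10 genes and 0.08 over all.

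Dividing cells were 13.7% of all OIR UMIs but held 34.4% of the OIR UMIs of Hat1 (207 of 601) and 24.4% of those of Hdac2 (100 of 409). In the RA library they were 1.16% of UMIs and held 3.61% of those of Hat1. Across all deposited cells, Hat1 stood at 27.3 CPM in RA and 72.7 CPM in OIR, a log2 ratio of 1.41 (1.23 to 1.60), so the difference over the whole library was larger than that within microglia.

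Among the 122 OIR dividing cells, 32 were called in S phase, when DNA is copied, and 90 in G2M, by gene lists that hold none of the 10 genes. Hat1 stood at 282 CPM (230 to 342) in S-phase cells and 127 CPM (104 to 154) in G2M cells. The S level was 2.22-fold that of G2M (log2 1.15, 0.75 to 1.56), where 4.89% of all genes were at least 2-fold higher in S cells and the median of all genes was -0.00. The intervals of the other genes with a ratio took in 0, with Hdac2 at 79.4 and 86.5 CPM and Hdac3 at 43.8 and 65.8 CPM. The S cells were deeper, with a median of 10899 UMIs against 5445.5, and the part of depth in the phase calls was not tested.

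**Figure D3:**
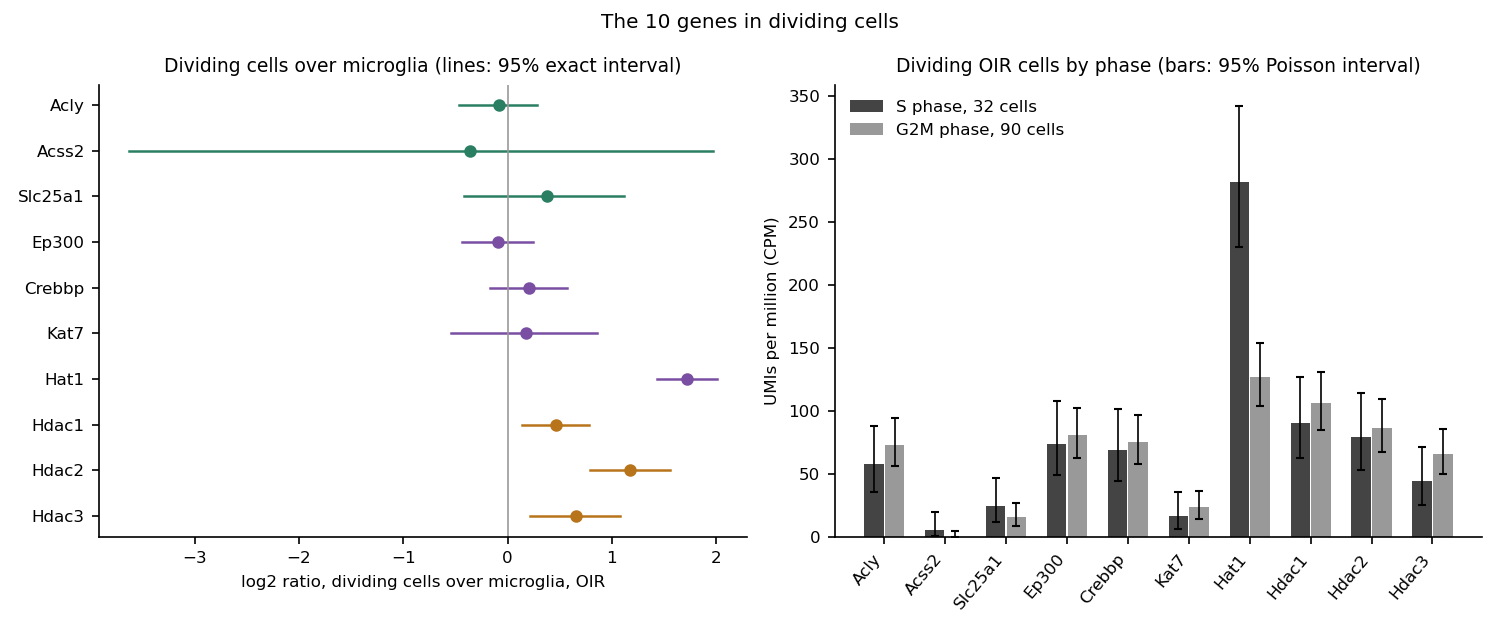
Left, log2 ratio of OIR dividing cells over OIR microglia (x axis) for the 10 genes, with exact 95% intervals; right, level in CPM (y axis) in OIR dividing cells called S (dark bars, 32 cells) and G2M (light bars, 90 cells), with exact 95% Poisson intervals. Hat1 lies at 1.72 on the left and stands at 282 CPM in S cells against 127 CPM in G2M cells on the right.

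Between the libraries, dividing cells gave a log2 ratio of OIR over RA of 1.06 (0.19 to 2.09) for Hat1 and -1.53 (-2.72 to -0.17) for Kat7, which stood at 60.8 CPM (8 UMIs) in RA and 21.1 CPM (25 UMIs) in OIR. Hdac2 had 0 UMIs in the RA dividing cells, so its OIR level was at least 2.95-fold higher by the exact interval (3.70-fold against a floor of 3 UMIs, or 22.8 CPM, in that group). Of 9 genes past the filter 2 were 2-fold higher and 1 lower, while 11.5% and 13.2% of all genes were, so these counts say little about the set. The 12 RA cells also differed from the OIR cells in makeup, with 14 monocyte markers at 3403 CPM against 636 CPM, and the part of this difference was not tested. Whether some of the 12 cells were doublets could not be judged. Without integration, which gave 23 RA dividing cells, the ratio of OIR over RA was 2.20 for Hat1, above its interval, and -1.48 for Kat7.

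Macrophages stood close to microglia. Hat1 was at 37.0 CPM in RA and 55.7 CPM in OIR macrophages, a log2 ratio of 0.59 (0.03 to 1.17), and the other 8 genes past the filter had intervals that took in 0. The dividing markers moved along with it, at 132 CPM in RA and 276 CPM in OIR macrophages, with 4 and 0 of the 16 at 0. Without the macrophages that held a UMI of these markers (17 RA and 24 OIR cells remained) the Hat1 ratio was -0.58, and with cells thinned to 1000 UMIs it was -0.25, so its sign did not hold. No gene passed 2-fold, against 7.22% of all genes higher and 5.33% lower in OIR. Within RA, macrophages had more Hat1 than microglia (0.62, 0.10 to 1.10), less Ep300 (-0.42, -0.75 to -0.11) and less Hdac1 (-0.56, -0.98 to -0.16). Within OIR, Crebbp was higher in macrophages, at 95.8 against 63.5 CPM (0.59, 0.27 to 0.91), but with cells thinned to 1000 UMIs the ratio was -0.18. None of the 9 genes past the filter in RA or the 7 in OIR reached 2-fold over microglia. Of all genes, 7.46% were higher and 4.14% lower in RA macrophages, and 6.48% and 4.31% in OIR macrophages. Rod markers summed to 926 CPM in RA and 389 CPM in OIR macrophages, and their part was not tested.

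Monocytes, which enter tissue from the blood, had the highest levels of the coactivator pair among the 5 classes of each library. In OIR, however, their Crebbp was not apart from that of macrophages (log2 0.08, -0.33 to 0.48). A photoreceptor cluster kept apart from the 5 classes, described below, held more Ep300 in both libraries and more Crebbp in OIR. Crebbp stood at 166 CPM in RA and 101 CPM in OIR monocytes, against 95.4 and 63.5 CPM in microglia, for log2 ratios over microglia of 0.80 (0.49 to 1.09) and 0.67 (0.31 to 1.03). Ep300 stood at 141 and 102 CPM, with ratios of 0.41 (0.08 to 0.73) and 0.29 (-0.06 to 0.64). With cells thinned to 1000 UMIs, which leaves few counts, the Crebbp ratios were 0.23 in RA and 0.01 in OIR. Those of Ep300 were then 0.75 and -0.34. Of the 7 genes that passed the filter in each library, none reached 2-fold over microglia, while 15.4% of all genes were higher and 10.4% lower in RA monocytes, and 11.3% and 5.84% in OIR monocytes. Both genes were lower in OIR than RA monocytes, with log2 ratios of -0.71 (-1.14 to -0.29) for Crebbp and -0.46 (-0.90 to -0.02) for Ep300, the signs seen in microglia. The makeup of the class moved as well, since the 16 microglia markers summed to 9403 CPM in RA and 18184 CPM in OIR monocytes and the 14 monocyte markers to 13116 and 7323 CPM, with 0 markers of either list at 0, and the part of this was not tested. Hdac3 was the 1 gene of 8 past 2-fold between libraries, at 12.6 CPM in RA and 30.4 CPM in OIR (1.26, 0.09 to 2.61), where 6.58% of all genes were higher and 6.51% lower. Without the filter on cells rich in genes its ratio was 0.40.

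The class named rods was poor in the nuclear RNA Malat1, at 181 CPM in RA and 218 CPM in OIR, against 19021 and 7602 CPM in microglia. The part of this in the levels below was not tested. Hdac2 was the 1 gene past the filter that was 2-fold higher in rods than in microglia of both libraries. It stood at 54.6 CPM (31.2 to 88.6, 16 UMIs) in RA rods and 124 CPM (79.7 to 185, 24 UMIs) in OIR rods, for log2 ratios over microglia of 1.01 (0.17 to 1.74) and 1.74 (1.05 to 2.37). Hdac1 lay the other way in RA, at 17.0 CPM (5 UMIs) against 70.8 CPM in microglia (-2.05, -3.68 to -0.82), and in OIR at 46.6 against 73.5 CPM (-0.66, -1.80 to 0.29). Slc25a1 had 0 UMIs in rods of both libraries. The floor of 3 UMIs, which is not an upper limit, stands there at 10.2 CPM in RA and 15.5 CPM in OIR. Microglia stood at 19.5 and 14.3 CPM, so the 0 in OIR could not set rods apart from microglia. Microglia markers in rods summed to 188 CPM in RA and 347 CPM in OIR, against 41271 and 50783 CPM in microglia, with 6 and 3 of the 16 at 0 in rods, and the source of these UMIs was not tested. Over microglia, 1 of 8 genes was 2-fold higher and 2 lower in RA rods, where 30.6% and 34% of all genes were, and 1 of 8 higher and 0 lower in OIR rods, where 30.9% and 32.1% were.

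Rods also had less Ep300 than microglia in RA (51.1 against 106 CPM, -1.05, -1.89 to -0.32), but this sign turned to 0.27 when a second photoreceptor cluster, rich in Malat1, was counted as rods. Between libraries, Hdac2 (1.19, 0.22 to 2.20) and Hdac1 (1.45, -0.28 to 3.38) were the 2 genes of 7 past 2-fold in rods, where 12.9% of all genes were higher and 9.46% lower in OIR. With the second cluster counted as rods both calls were lost, at 0.60 for Hdac2 and 0.10 for Hdac1. The median rod held 1457 UMIs in RA and 1035 in OIR, and each of the 10 genes rested on at most 24 UMIs per library there.

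The photoreceptors rich in Malat1 (109 RA and 75 OIR cells) differed from rods in that they held more of the coactivators. Ep300 stood at 158 CPM in RA and 183 CPM in OIR and Crebbp at 104 and 146 CPM, against 51.1 and 46.6 CPM and 61.4 and 51.8 CPM in rods. Hdac2 stood at 70.1 and 87.8 CPM, above microglia in both libraries as in rods (log2 1.37 and 1.24). Acss2 was higher there than in microglia, at 15.4 CPM (11 UMIs) and 23.1 CPM (10 UMIs), with log2 ratios of 3.45 (2.11 to 4.80) and 3.42 (1.93 to 4.96), and Slc25a1 had 1 UMI in RA and 0 in OIR. Over microglia, 1 of 7 genes that passed the filter was 2-fold higher in RA and 3 of 7 in OIR, where 36.8% and 38.6% of all genes were. None of the 7 was 2-fold lower in either library, where 24.1% of all genes were in RA and 24% in OIR.

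The cluster led by Fabp5 (72 RA and 182 OIR cells) held all 16 microglia markers but few UMIs per cell, with a median of 3247.5 and 2436.5, and Malat1 at 2654 and 69.6 CPM. Ep300 stood at 34.7 CPM (9 UMIs) in RA and 10.2 CPM (6 UMIs) in OIR, for log2 ratios over microglia of -1.61 (-2.74 to -0.68) and -3.03 (-4.49 to -1.90). Crebbp stood at 57.8 and 28.9 CPM, with ratios of -0.72 and -1.14 (-1.94 to -0.43). In the same cells Acly, Hdac2 and Hdac3 had intervals that took in 0 against OIR microglia. Over microglia, 0 genes were 2-fold higher and 1 of 8 lower in RA, where 6.79% and 29.9% of all genes were, and 0 higher and 2 of 7 lower in OIR, where 4.26% and 24.1% were. Hat1 stood at 11.6 CPM (3 UMIs) in RA and 56.0 CPM (33 UMIs) in OIR, a log2 ratio of OIR over RA of 2.28 (0.61 to 4.63), and between the libraries 1 of 8 genes was 2-fold higher and 2 lower, against 16.6% and 11.3% of all genes. Of the 8 wider lists, 23 of 65 genes tested were at least 2-fold lower in this cluster than in OIR microglia and 0 higher.

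In the order of each gene's 10 levels (5 classes in 2 libraries), few neighbours lay apart beyond counting error. OIR dividing cells led for Hat1, apart from RA dividing cells in the second place. RA monocytes led for Ep300, apart from RA microglia (0.41, 0.08 to 0.73), and for Crebbp, apart from OIR monocytes (0.71, 0.29 to 1.14). No other neighbours of any of the 10 genes were apart. Acly had the flattest order, from 98.8 CPM in RA dividing cells to 46.6 CPM in OIR rods, and within the 4 myeloid classes its levels lay between 68.3 and 98.8 CPM. In those classes Slc25a1 lay between 10.1 and 30.4 CPM and Acss2 at 2.97 CPM or less, and Acss2 was highest in RA rods, at 17.0 CPM from 5 UMIs.

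**Figure D4:**
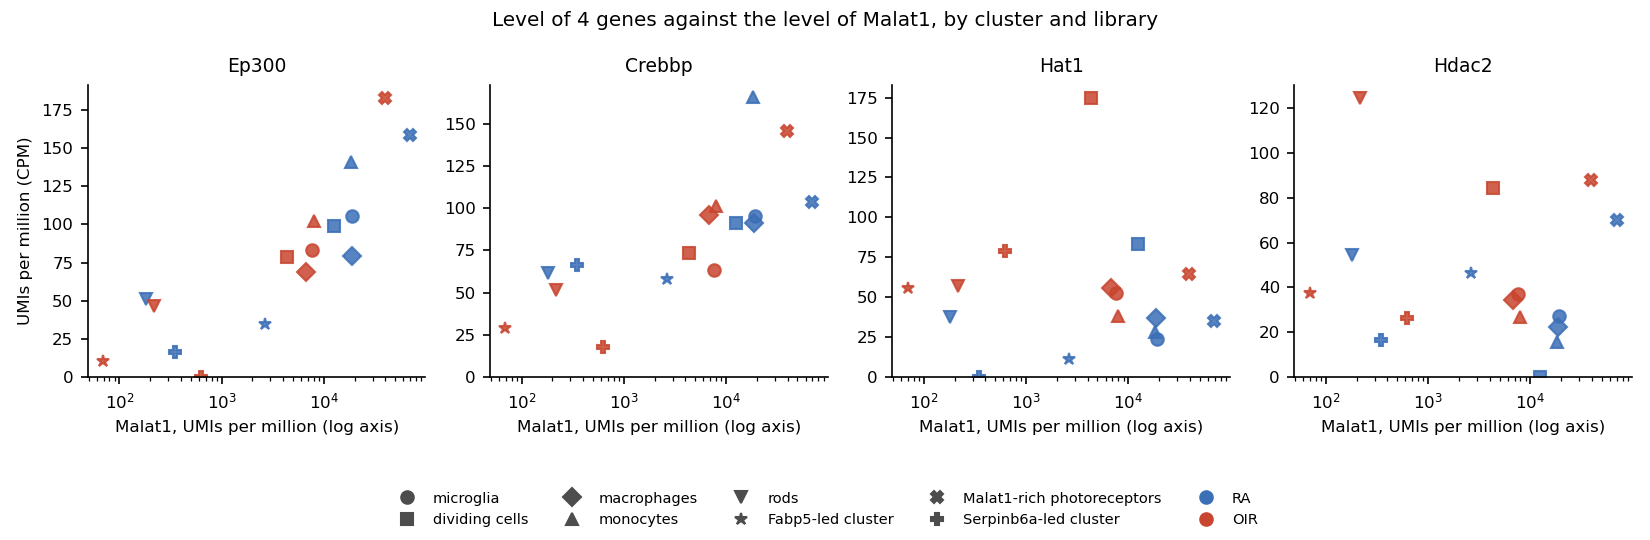
Level in CPM (y axis) of Ep300, Crebbp, Hat1 and Hdac2 against that of Malat1 (x axis, log scale) in 8 classes or clusters (symbols) of the RA (blue) and OIR (red) libraries. In the 6 groups under 3000 CPM of Malat1, Ep300 stood at 51.1 CPM or less, and in the other 10 groups at 69.1 to 183 CPM. Crebbp came close to this split, which only the RA Serpinb6a-led cluster broke, on 4 UMIs. The gap was narrow, from 61.4 CPM in RA rods to 63.5 CPM in OIR microglia. Hat1 and Hdac2 were not split this way. The same 6 groups had the lowest median UMIs per cell, 1035 to 3247.5 against 3915 or more, so Malat1 and depth cannot be told apart here.

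As a description over the 10 class-by-library groups, the genes whose log2(CPM + 5) lay closest to that of Hat1 among the 5792 genes that reached 50 CPM in any group were Tfdp1, a partner of E2F (Pearson r 0.971), Mrps26 (0.966), a mitochondrial ribosomal protein, and Ranbp1 (0.953), a regulator of the Ran GTPase. Those closest to Hdac1 were G3bp1 (0.988), Tor1b (0.976) and Mapk3 (0.968), and to Hdac2 Hdgfl2 (0.979), Mrpl38 (0.972) and Ranbp3 (0.967). For Hdac3 the first was Nap1l4 (0.937), for Ep300 Ywhaz (0.981), for Crebbp Cyld (0.935), for Acly Itsn2 (0.968) and for Kat7 Nfx1 (0.919). The points share libraries and differ in depth, and Acss2 and Slc25a1 were too low for the comparison.

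The other genes of the pathway were taken as 8 lists of 122 genes. In microglia 76 passed the filter, of which 1 was at least 2-fold higher in OIR (Sap30, 22.7 and 45.4 CPM) and 3 lower, where 3.74% and 4.13% of all genes were, with a median of -0.22 against 0.05 for all genes, and 29 above and 47 below 0. The list of mitochondrial and cytosolic acetyl-CoA and citrate had 12 of 13 genes above 0 and a median of 0.42, with none past 2-fold. Examples were the mitochondrial pyruvate carrier subunits Mpc1 (243 and 412 CPM) and Mpc2 (57.8 and 82.1 CPM), chosen after their values were seen, while Pdk3, a kinase that curbs pyruvate dehydrogenase, had the highest ratio of this list (8.07 and 18.4 CPM, log2 1.19, 0.67 to 1.70) but lay under the filter.

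The readers of acetylated lysine, bromodomain proteins, were lower in OIR microglia for 8 of 8 genes, with a median of -0.32. Brd9 was the 1 past 2-fold, where 4.13% of all genes were at least 2-fold lower. It stood at 47.3 CPM in RA and 19.98 CPM in OIR (-1.24, -1.62 to -0.88). The partners of acetyltransferases were lower for 10 of 12 genes (median -0.32) and the subunits of deacetylase corepressors for 18 of 27 (median -0.31). Of 5 other acetyltransferases 3 were lower (median -0.37), and of 3 other deacetylases 2 (median -0.03). The medians of partners and readers thus had the sign of Ep300, Crebbp and Kat7, while that of the corepressor subunits had the sign opposite to Hdac2 and Hdac3. How many of all genes lay below 0 is not given here, so these counts of signs cannot be called unusual.

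The genes listed as histone chaperones, some of which hand new H3 and H4 on to DNA, had the highest median of the lists in dividing cells. All 7 were at least 2-fold higher in OIR dividing cells than in OIR microglia, with a median of 2.53 against 0.08 for all genes, led by Asf1b (3.78 and 125 CPM, log2 5.04, 4.25 to 5.95), Chaf1a (3.59, 2.72 to 4.55) and Chaf1b (3.23, 2.51 to 3.99). Asf1b passed the filter only through dividing cells, the group where it was high. The class was named from markers of division, so higher levels of genes used when DNA is copied were largely given in advance. Over all 8 lists, 13 of 81 genes were 2-fold higher and 0 lower, where 9.3% and 2.23% of all genes were. The 7 chaperones made up most of the 13, so the count says little about the other lists. The rest included 3 partners of Hdac1 and Hdac2, Rbbp4 (116 and 234 CPM), Rbbp7 (76.4 and 207 CPM) and Sap30 (45.4 and 100 CPM). In OIR over RA microglia 2 of the 7 chaperones passed the filter. Mcm2, which did not pass it, gave 2.95 and 19.98 CPM (2.76, 2.07 to 3.50).

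**Figure D5:**
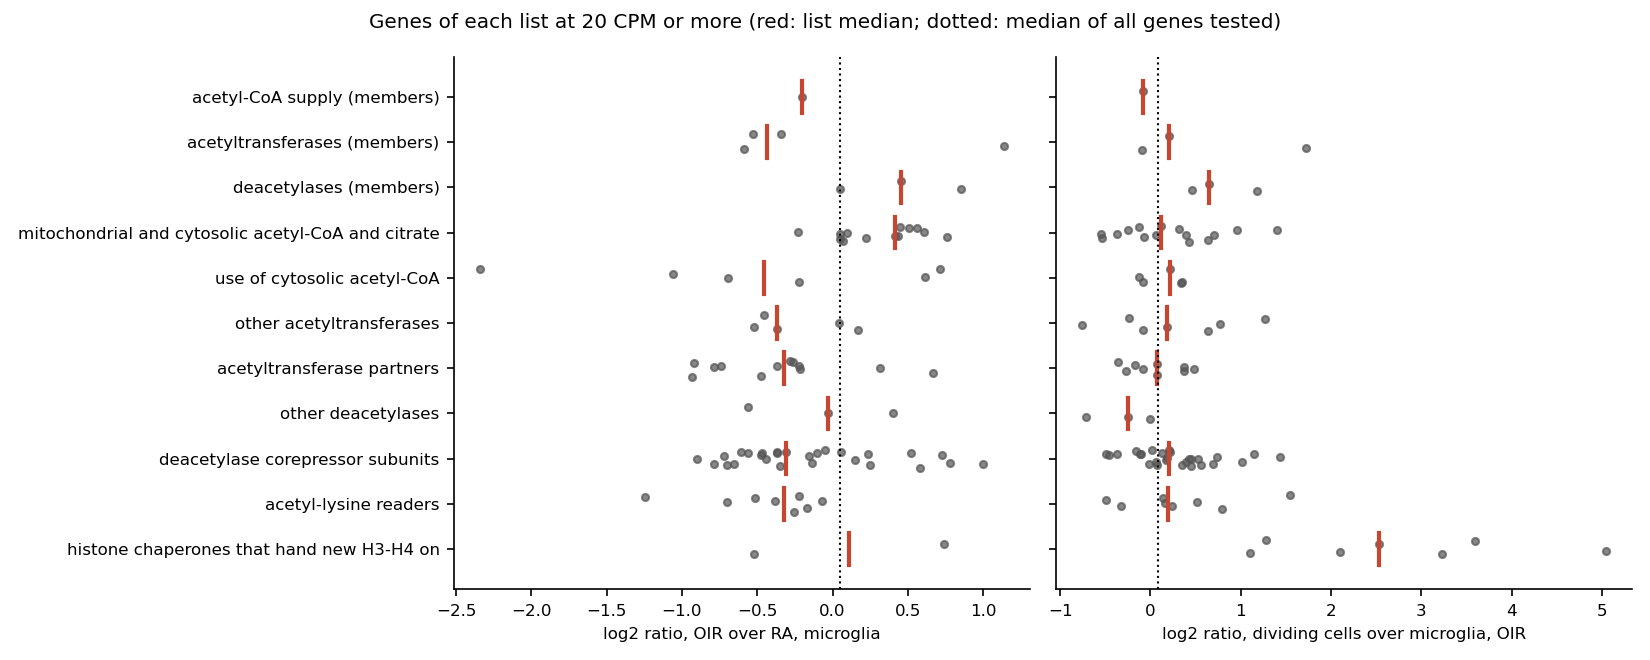
Log2 ratios (x axis) of OIR over RA in microglia (left) and of dividing cells over microglia in OIR (right) for each gene with a mean of at least 20 CPM in the 3 role groups and 8 wider lists (y axis), with red lines at list medians and a dotted line at the median of all genes. On the left the citrate list lies around 0.42 and the readers around -0.32, and on the right the chaperones lie around 2.53.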

How the data were processed

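Gene expression was measured by 10x Chromium 3′ v3 single-cell RNA-Seq in 1 pooled library for each of RA and OIR. The authors deposited raw UMI counts per gene and cell, made with Cell Ranger 3.1.0 per the file headers and, per the submitters' processing notes, on the mm10 build with Seurat 4.0 downstream. Cells with over 20% mitochondrial UMIs and the 2% of cells with most genes were left out. The libraries were integrated in R 4.3.3 by Seurat 5.3.0, with Matrix 1.6.5 and SeuratObject 5.2.0, on 2988 of 3000 anchor genes, without the listed genes, and 2474 cells were clustered with 30 dimensions, 20 neighbours and a resolution of 0.5 into 11 clusters (seed 1).

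Genes found in 25% or more of a cluster's cells and reaching 100 CPM there were ranked by ratio over all other cells. A cluster was named when its top 10 held at least 4 markers of 1 type, and as microglia when at least 15 of 16 microglia markers were each found in at least 50% of its cells. A cluster led by Fabp5, a photoreceptor cluster rich in Malat1 and a cluster led by Serpinb6a were kept apart. This naming rule and 3 of the alternatives were chosen after seeing the data, and the 10 genes and all lists were chosen with earlier results of these data known. Scrublet, as in scanpy 1.11.5, marked 3 cells (0.121%) as doublets, too few for it to have worked, so doublets were not removed.

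UMIs were summed per class and library and divided by all UMIs of that group, with Python 3.11.15, numpy 2.4.6, scipy 1.17.1, pandas 2.3.3 and, for plots, matplotlib 3.10.9. Intervals at 95% were exact Poisson for levels and exact conditional for ratios, and the code for them was tested on simulated data. A gene was tested when the mean of both groups was at least 20 CPM and called past 2-fold (log2 of 1). A group at 0 was taken at a floor of 3 UMIs, and no ratio was given where both groups were at or under it. For the depth check each cell was thinned to 1000 or 3000 UMIs and shallower cells were left out. Named genes of the wider lists are the 3 highest and 3 lowest by ratio with at least 20 UMIs, unless said otherwise. Of these, 1 gene is left out of the text. Alternatives tried were all 3000 anchor genes, no integration, a resolution of 0.8, 20 dimensions, a floor of 2000 UMIs per cell, no filter on gene number, mitochondrial UMIs up to 10%, cells with Malat1 at 1000 CPM or more, doublets left out, myeloid cells with rod markers under 1%, dividing cells with no Pf4, Mrc1 or Ms4a7 UMI, means over cells of the value per 10000 UMIs, no ribosomal protein or mitochondrial genes, centred ratios, cells thinned to 1000 UMIs and other filters on low values. Those added were the Fabp5-led cluster counted as microglia, the photoreceptors rich in Malat1 counted as rods, and myeloid cells with no UMI of a dividing marker. Cell cycle phases were called with the S and G2M lists that Seurat ships.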

Additional observations from a re-analysis of the deposited data

How the results depend on the processing

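With 1 library per condition, what is limited is depth and the lack of replicates: the RA dividing cells and the rods hold few UMIs of each gene. Under 18 alternatives, 228 of 233 medians over the 10 genes stayed within the range used for them. That range was the mean of the interval bounds of the middle gene or genes. It is not an interval of the median, and it is wide where counts are low, so staying within it is a weak check. The 5 that moved came from groups left with few cells or UMIs. With cells at 1000 CPM or more of Malat1, which left 8 RA and 6 OIR rods, the median of rods over microglia was 3.33 in RA, from 2 genes with a value, and 5.27 in OIR, from 1 gene, Slc25a1, taken at the floor in both. Thinned to 1000 UMIs, the median was -0.25 for OIR over RA macrophages (6 genes) and 2.38 for dividing cells over microglia in RA (3 genes). Without cells holding a UMI of a dividing marker (17 RA and 24 OIR macrophages left), the median of OIR over RA macrophages was -0.29. Of 2141 ratios of single genes, 2077 stayed within their interval, 63 moved and 1 reversed, Ep300 in rods over microglia in RA (0.27 with the photoreceptors rich in Malat1 counted as rods). A further 159 ratios were not given because a group held 0 UMIs in the full counts or under the alternative. Hat1 in OIR over RA microglia kept its sign in 18 of 18 alternatives and passed 2-fold in 15, with a range of 0.36 to 1.32. All these counts and totals include settings that leave the cells of a comparison unchanged, whose agreement was fixed in advance. For this ratio, the settings on macrophage markers in dividing cells and on photoreceptors could only return the main value, 1.14. Hat1 in OIR dividing cells over microglia passed 2-fold in 18 of 18 (1.28 to 2.30) and Hdac2 there in 16 of 18 (0.95 to 1.77), though thinned to 3000 UMIs, which is outside these 18, Hdac2 gave 0.25.

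The filter on low values set how many genes were past 2-fold. In OIR over RA microglia there were 427 genes, 2560 without the filter and 264 with a mean of at least 50 CPM, and in OIR dividing cells over microglia 668, 2738 and 303. Over the 13 comparisons the counts ran from 427 to 3682, 2265 to 8388 and 264 to 1983. No paired analysis was possible because each condition is 1 library and no result came from a test.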

Other observations

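The list of genes that use cytosolic acetyl-CoA, for sterols and fatty acids, had 5 of 7 genes past the filter at least 2-fold lower in OIR macrophages, where 5.33% of all genes were, and a median of -1.42 against 0.14 for all genes. Sqle stood at 42.1 CPM in RA and 5.94 CPM in OIR (-2.83, -4.12 to -1.74) and Hmgcs1 at 98.0 and 32.7 CPM (-1.58, -2.12 to -1.07). Sqle passed the filter only through RA macrophages, the group where it was high. These ratios come from the full counts, and the part of depth in them was not tested. In microglia Srebf2, the transcription factor of sterol genes, was lower in OIR, at 40.0 and 19.2 CPM (-1.06, -1.45 to -0.68). In the RA and OIR macrophages Acly stood at 85.9 and 74.3 CPM, with an interval that took in 0.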
